A study of Mus musculus with 3 samples.

Results

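The 8 genes described here are the nuclear-retained noncoding RNAs Malat1, Neat1 and Kcnq1ot1 and 5 protein-coding genes, Zfpm2, Aff2, Immp2l, Grip1 and Eda, that vary with them. They are 8 of the 32287 features counted in a droplet single-cell RNA matrix of mouse PC cells. The genes were chosen from this same matrix, for a share of UMIs (unique molecules counted) that changed together with the total UMIs of a cell and with its mitochondrial share, so their levels along these measures are a description and were not tested. The 5 protein-coding genes are called the long genes below.

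PC cells come from esophageal organoids of mice with floxed Trp53, in which Ad-Cre-EGFP removed Trp53 and CRISPR/Cas9 then disrupted Cdkn2a. The organoids were dissociated and grown as cells in DMEM with 10% FBS, with Y-27632 for the first 3 passages and without it afterwards. All cells carried both lesions, constitutive Cas9 and a transfected barcode library, and live RFP-positive cells were sorted, about 1000000 of them, with about 20000 recovered. There was 1 culture and no untreated, wild-type or replicate group, so every interval below covers counting error only and no p-value was computed. The labels describe 3 libraries of this culture and the matrix does not say which of them supplied its reads.

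Malat1 and Neat1 are long noncoding RNAs that stay in the nucleus. Malat1 collects in nuclear speckles, bodies rich in splicing factors, and the long form of Neat1 is the scaffold of paraspeckles. Malat1 and the long form of Neat1 do not end in an ordinary poly(A) tail: RNase P cuts the transcript beside a genome-encoded A-rich tract, which folds into a triple helix and protects the new end. The short form of Neat1 is polyadenylated in the usual way. Kcnq1ot1 is an unspliced RNA transcribed antisense to Kcnq1 from the paternal chromosome, where it silences neighbouring imprinted genes in cis.

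The A-rich stretches of the 3 noncoding RNAs are shown because the kit captures RNA with oligo-dT, which pairs with runs of A. Sequences are from GENCODE M21 transcripts on GRCm38, 5′ to 3′ along the transcript, all on the minus strand. Capitals mark the run of A in Malat1 (chr19:5795908-5796079, exonic), the A-rich end of the long Neat1 transcript (chr19:5824708-5824807, exonic) and the longest run of A in Kcnq1ot1 (chr7:143226915-143227015, exonic).
Malat1: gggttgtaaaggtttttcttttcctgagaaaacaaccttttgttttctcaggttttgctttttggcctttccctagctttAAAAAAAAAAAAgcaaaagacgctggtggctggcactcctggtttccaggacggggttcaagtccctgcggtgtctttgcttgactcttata
Neat1: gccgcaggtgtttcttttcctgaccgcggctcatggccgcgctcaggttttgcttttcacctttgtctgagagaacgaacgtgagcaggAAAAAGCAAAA
Kcnq1ot1: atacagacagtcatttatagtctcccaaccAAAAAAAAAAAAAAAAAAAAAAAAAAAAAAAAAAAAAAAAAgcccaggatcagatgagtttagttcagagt
The Malat1 run is 12 bases long and starts at base 6674 of a 6983-base transcript. The Kcnq1ot1 transcript of 93092 bases holds 30 runs of at least 8 A, of which 8 are at least 12 long and the longest is 41. Neat1 has no run of A longer than 7 within its 20771 bases. A run of at least 12 A was present in 4.07% of all 141767 annotated transcripts, and in 31.6% of the 114 lincRNA or antisense transcripts of at least 5000 bases, so its presence in Malat1 and Kcnq1ot1 is not rare among RNAs of their kind. In the spliced transcripts of the long genes, the longest run was 15 in Grip1 and 10 or fewer in the others. Their introns were not searched.

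All 8 genes lie in long or noncoding loci. Malat1 (ENSMUSG00000092341) spans chr19:5795690-5802672 and Neat1 (ENSMUSG00000092274) chr19:5824708-5845478, 22.0 kb apart on the same strand. Kcnq1ot1 (ENSMUSG00000101609) spans chr7:143203458-143296549 inside Kcnq1, which lies on the opposite strand and had 62 UMIs against 1903 for Kcnq1ot1. Zfpm2 (ENSMUSG00000022306, chr15:40655035-41104592), Aff2 (ENSMUSG00000031189, chrX:69360294-69868037), Immp2l (ENSMUSG00000056899, chr12:41024090-41955588), Grip1 (ENSMUSG00000034813, chr10:119453830-120087261) and Eda (ENSMUSG00000059327, chrX:99975606-100400762) are on the plus strand. Their spans run from 425.2 kb for Eda to 931.5 kb for Immp2l, longer than 98.6% to 99.7% of 21702 protein-coding genes, whose median span is 17.3 kb. Of these, 2 overlap protein-coding genes on the other strand, Grip1 with Helb, which had 396 UMIs, and Immp2l with Lrrn3, which had 16 UMIs. The sources used here do not say whether strand was used in counting.

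The matrix held 18116 barcodes with 47720034 UMIs. Cells were kept at a minimum of 500 genes and 1000 UMIs and a maximum of 20% mitochondrial UMIs, which left 14925 cells with 45443280 UMIs, a median of 2955 UMIs and a median mitochondrial share of 2.76%. All barcodes come from 1 matrix, so barcodes shared between libraries could not be counted. No doublets were removed.

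Malat1 made up most of the UMIs of the 8 genes. Its 828672 UMIs gave a level of 18235 CPM (UMIs per 1000000, 95% Poisson interval 18196 to 18275), and it was detected in 99.7% of cells. Together the 8 genes held 1.90% of all UMIs, and Malat1 held 95.8% of those. Neat1 followed with 285.6 CPM (280.7 to 290.5) and a UMI in 48.0% of cells. Kcnq1ot1 had 41.9 CPM (40.0 to 43.8) and a UMI in 11.4% of cells. UMIs were not divided by transcript length, so these levels are shares of UMIs and give no order of transcription between genes.

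Among the long genes, Immp2l, which encodes a subunit of the peptidase of the inner mitochondrial membrane, had 251.3 CPM (246.8 to 256.0) and 53.6% of their UMIs. Grip1, a PDZ-domain scaffold first known from AMPA receptor clustering, had 91.3 CPM (88.6 to 94.1). Aff2, a nuclear protein of the AF4/FMR2 family linked to transcription elongation, had 47.5 CPM (45.5 to 49.6). Eda, the ligand ectodysplasin that signals in hair, tooth and gland formation, had 42.1 CPM (40.2 to 44.0). Zfpm2, a zinc finger cofactor of GATA factors, had 36.7 CPM (35.0 to 38.6). Detection of these 5 ranged from 9.15% of cells for Zfpm2 to 43.8% for Immp2l. With every cell thinned to 1000 UMIs, detection ran from 3.71% (3.41 to 4.02) for Zfpm2 to 21.3% (20.7 to 22.0) for Immp2l, with 23.7% for Neat1 and 98.5% for Malat1.

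In single cells Malat1 took from 0.262% of UMIs at the 5th percentile to 5.57% at the 95th, and at most 29.7%.

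All 8 genes were higher in cells with a high mitochondrial share. In cells with 10 to 20% mitochondrial UMIs (397 cells) Malat1 stood at 99848 CPM, against 16447 CPM in cells under 5% (13434 cells), a ratio of 6.07 (6.02 to 6.13). Neat1 stood at 2029 against 243.7 CPM, a ratio of 8.33 (7.81 to 8.87). Kcnq1ot1 had the smallest ratio of the 8, 4.28 (3.41 to 5.32), at 167.0 against 39.0 CPM. The summed long genes stood at 3004 against 402.1 CPM, a ratio of 7.47 (7.09 to 7.87), and each of them lay between 7.05 for Grip1 and 9.82 for Zfpm2. Thus 8 of 8 genes were past 2-fold higher, where 27.1% of the 10139 genes of at least 5 CPM were past it and 25.3% were 2-fold lower. Since this contrast chose the genes, nothing is read from their count.

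The rise was not even along the mitochondrial share. Malat1 had 12680 CPM under 2%, 17458 at 2 to under 5%, 31917 at 5 to under 10%, 99380 at 10 to under 15% and 101990 at 15 to 20%. The long genes summed to 375.1, 409.3, 1088, 3089 and 2619 CPM over the same bins. Thus, over all depths, the largest step lay between the bins of 5 to under 10% and 10 to under 15%. The last 2 bins differed little for Malat1. Zfpm2 and Aff2 had lower values in the last bin, 184.0 and 238.1 CPM, than in the bin before it, 321.9 and 359.7 CPM, while Neat1 had 2424 against 1943 CPM. The last bin holds 74 cells. Among cells of 1000 to under 1500 UMIs the larger step came earlier, between 2 to under 5% and 5 to under 10%. Malat1 there had 19008, 75327 and 107919 CPM at 2 to under 5%, 5 to under 10% and 10 to under 15%. The long genes had 410.5, 3230 and 3367 CPM in these bins.

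**Figure D1:**
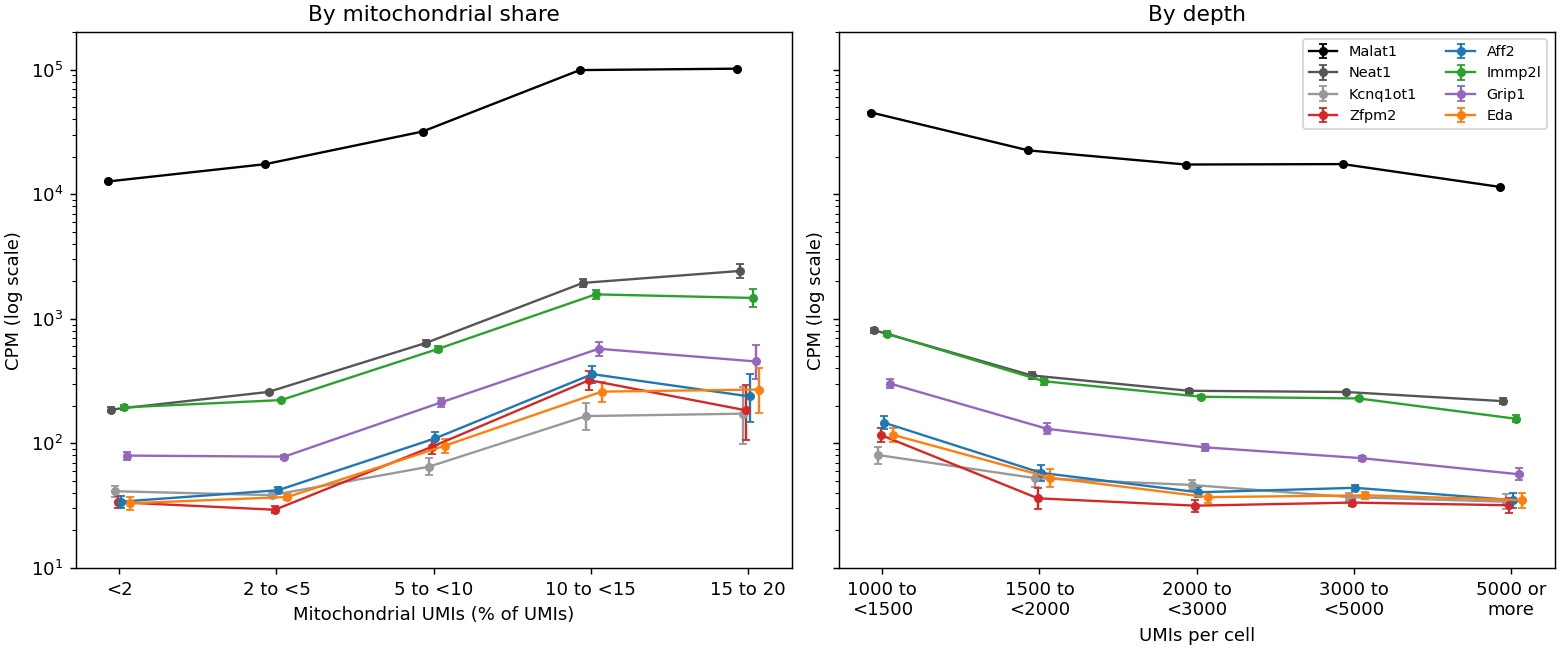
Level of each of the 8 genes (CPM, log scale, with 95% Poisson intervals) in bins of mitochondrial share (left) and of UMIs per cell (right), over 14925 kept cells of 1 culture. All 8 lines are higher at 10 to 15% mitochondrial UMIs than under 5%, Malat1 reaching 99380 CPM, and all are highest in cells of 1000 to under 1500 UMIs.

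All 8 genes were also higher in shallow cells. Between cells of 1000 to under 1500 UMIs (1644 cells) and cells of at least 3000 UMIs (7270 cells), Malat1 stood at 45343 against 16257 CPM, a ratio of 2.79 (2.77 to 2.81). Neat1 stood at 809.4 against 250.5 CPM, a ratio of 3.23 (3.06 to 3.41), and the long genes at 1442 against 400.1 CPM, a ratio of 3.60 (3.46 to 3.75). Single genes ran from 2.22 (1.87 to 2.61) for Kcnq1ot1 to 4.19 (3.82 to 4.58) for Grip1. Again 8 of 8 were past 2-fold higher, beside 11.7% of tested genes higher and 5.28% lower, and this contrast too was part of the choice.

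The depth difference of the summed long genes was within counting error among cells of low mitochondrial share. Among cells under 5% mitochondrial UMIs, the long genes had 392.1 CPM in cells of 1000 to under 1500 UMIs (1004 cells) and 397.4 CPM in cells of at least 3000 UMIs (7008 cells), a ratio of 0.987 (0.901 to 1.08). Malat1 had 18441 and 16166 CPM there, a ratio of 1.14 (1.13 to 1.16), and Neat1 had 224.4 and 246.9 CPM, a ratio of 0.909 (0.805 to 1.02). Grip1 kept a small difference, 97.1 against 71.5 CPM, a ratio of 1.36 (1.12 to 1.63). None of the 8 was 2-fold higher in these shallow cells, beside 1.55% of tested genes. Zfpm2 alone was 2-fold lower, beside 5.70% of tested genes, with 13 UMIs in the shallow cells at 10.1 CPM against 33.0 CPM, a ratio of 0.306 (0.162 to 0.525).

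With depth held at 1000 to under 2000 UMIs, all 8 genes were still higher in cells of high mitochondrial share. The long genes had 3130 CPM in 376 cells of 10 to 20% and 398.1 CPM in 2447 cells under 5%, a ratio of 7.86 (7.31 to 8.45). Malat1 had a ratio of 5.85 (5.78 to 5.92), Neat1 of 9.70 (8.83 to 10.7) Immp2l of 7.53 (6.81 to 8.32) and Grip1 of 5.82 (4.96 to 6.82) against 7.05 over all depths. Zfpm2 had the largest, 20.2 (14.8 to 28.0), at 301.9 against 14.9 CPM. All 8 were past 2-fold higher, beside 26.4% of tested genes higher and 25.8% lower. Only 21 cells of 10 to 20% had 2000 UMIs or more, and in them the long genes had 1778 CPM against 402.5 CPM in the 10987 cells under 5% of that depth.

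**Figure D2:**
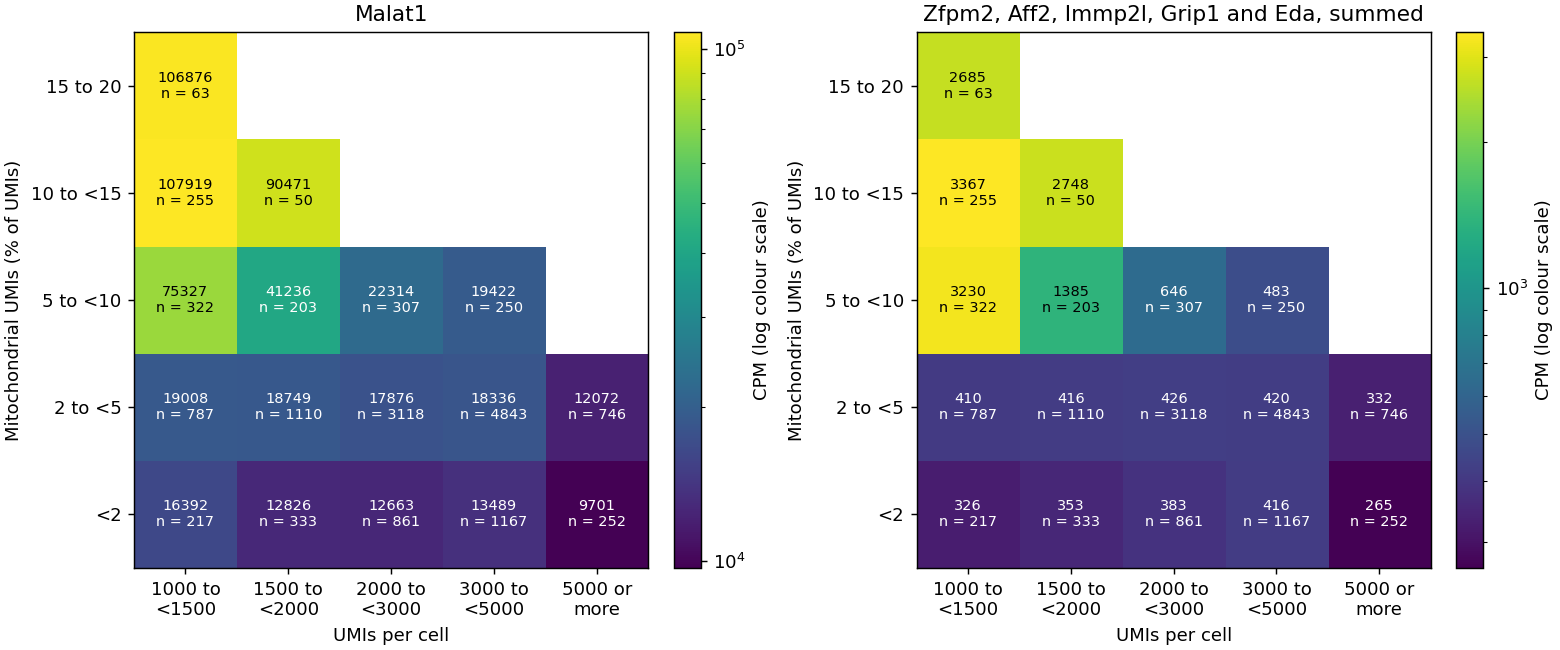
CPM of Malat1 (left) and of the 5 long genes summed (right) in cells crossed by UMIs per cell and mitochondrial share. Colour and upper number give the level on a log colour scale, n is the number of cells, and bins under 50 cells are blank. Along the row of 2 to under 5% the levels stay between 17876 and 19008 CPM for Malat1 and between 410.5 and 426.3 CPM for the long genes from 1000 to under 5000 UMIs. In that row the median cell had 1.01% Malat1 at 5000 or more UMIs, against 1.59% at 3000 to under 5000. Under 2%, Malat1 had 16392 CPM at 1000 to under 1500 UMIs and 12826 CPM at 1500 to under 2000. The highest values stand at the upper left, 107919 CPM for Malat1.

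The cells of high mitochondrial share differed in other measures too. Cells of 10 to 20% had a median of 1185 UMIs and 720 genes, against 3059 UMIs and 1537 genes under 5%. Messenger RNAs of ribosomal proteins took 2.15% of their UMIs, against 14.4%. Malat1 exceeded 5% of UMIs in 80.9% of them and in 1.97% of cells under 5%. With mitochondrial UMIs left out of the total, the ratio of the long genes was 8.35 in place of 7.47. The part that RNA quality, depth or these other shares play in the levels was not tested.

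Among barcodes that the filters removed, those of high mitochondrial share had levels near those of the kept cells of high mitochondrial share. In the 292 barcodes over 20%, Malat1 had 80971 CPM and the long genes 2394 CPM. Among the 2893 removed for having under 1000 UMIs, those of at least 10% mitochondrial UMIs (1885 barcodes) had 99869 CPM of Malat1 and 3124 CPM of the long genes. Those under 5% (376 barcodes) had 23187 and 556.1 CPM, ratios of 4.31 (4.20 to 4.42) and 5.62 (4.79 to 6.62). Each of the 8 genes was past 2-fold here, from 3.76 (2.24 to 6.82) for Kcnq1ot1 to 7.89 (4.24 to 16.6) for Zfpm2, beside 22.1% of tested genes higher and 27.6% lower. These barcodes did not enter the choice of genes, but they come from the same matrix and are no replicate.

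Detection of the long genes differed between cells of high and low mitochondrial share. After thinning to 1000 UMIs, at least 1 long gene was detected in 85.4% of cells of 10 to 20% mitochondrial UMIs and in 30.7% of cells under 5%. At least 2 of the 5 were detected in 58.7% and 4.81% of these cells. Cells were also ranked by their share of Malat1, with Malat1 then taken out of the total. From the lowest to the ninth decile of cells the long genes went from 205.5 to 608.2 CPM and Neat1 from 129.2 to 417.2 CPM. The median depth stayed between 2943 and 3105 UMIs, but the median mitochondrial share went from 2.53% to 3.10%. In the top decile the long genes and Neat1 reached 1429 and 950.1 CPM, at medians of 1830 UMIs and a mitochondrial share of 4.59%. How many other genes rose over these deciles, or were detected together as often, was not counted.

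The top decile was then split at 5% mitochondrial UMIs. That share was part of the choice of the genes, so the values on either side are descriptions. The 793 cells of the top decile under 5% mitochondrial UMIs had a median of 3005 UMIs and 606.6 CPM of long genes, close to the ninth decile. The other 700 cells had a median of 1221 UMIs and 3431 CPM of long genes, with Neat1 at 2054 against 496.9 CPM. Across thinned cells the Spearman correlation of Malat1 with Neat1 was 0.25 over all 14925, 0.16 over the 13434 under 5% and 0.57 over the 1491 others. For Immp2l in place of Neat1 these values were 0.22, 0.12 and 0.55. All cells share 1 culture and matrix, and the correlations are descriptions.

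**Figure D3:**
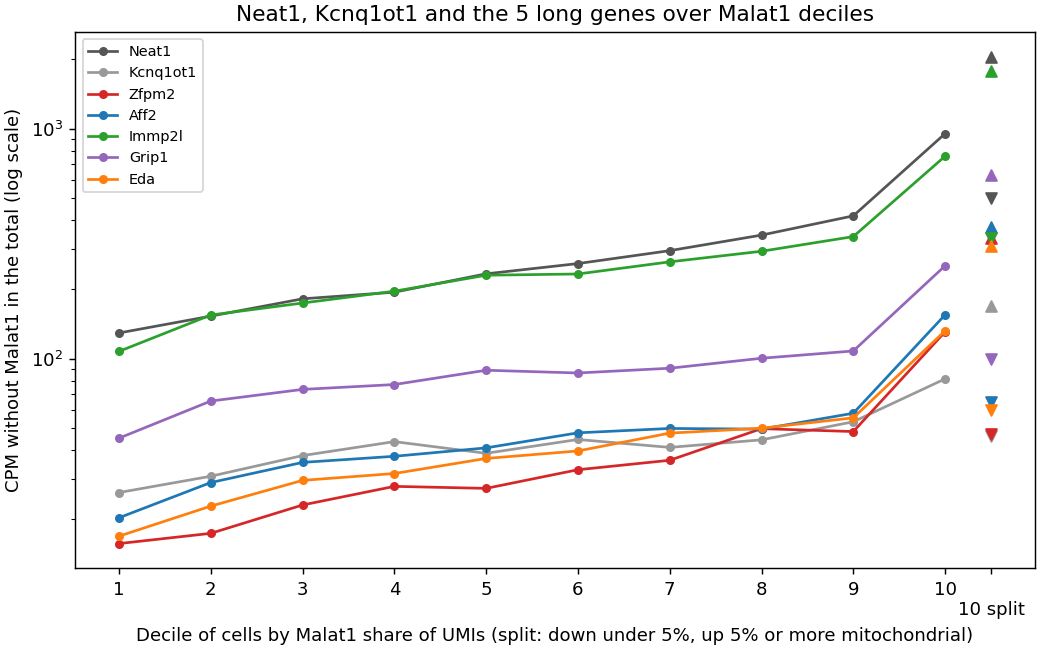
CPM of 7 genes, Malat1 left out of the total (log scale), in deciles of the 14925 cells by Malat1 share of UMIs. Triangles split the top decile into cells under 5% (pointing down) and of at least 5% (pointing up) mitochondrial UMIs, and each gene lies higher in the latter, as Neat1 with 2054 against 496.9 CPM. The mitochondrial share was part of the choice of the genes.

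Clustering without the 8 genes gave 1 group in which all 8 were highest. Cells were clustered on 2000 variable genes, with the 8 genes, mitochondrial genes and the added sequences GFP and Scar held out, into 9 clusters. Cluster 6, with 750 cells, had 83449 CPM of Malat1, 1787 CPM of Neat1 and 3059 CPM of long genes. In the other 8 clusters, Malat1 ran from 9373 CPM in cycling-like cluster 3 to 20781 CPM in cluster 1, and the long genes from 187.1 to 564.3 CPM, lowest in mesenchymal-like cluster 4 and highest in cluster 1. Clusters were made from other genes of the same cells, so the levels describe them and test nothing.

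Cluster 6 held 5.03% of cells, 2.60% of UMIs, 11.9% of Malat1 UMIs and 17.0% of long gene UMIs. The median cell of it had 1222 UMIs and a mitochondrial share of 9.71%, and the share was at least 5% in 90.3% of its cells. It stayed unnamed, because the genes with the highest ratio to other cells were Zfpm2, Aff2, Eda, Immp2l, Grip1 and Neat1, followed by Slc24a3, Diaph2, Slc8a1 and Rims2, and no listed marker was among them. Krt5, the basal keratin of esophageal epithelium, had 257.3 CPM in it, against 633.3 to 1039 CPM in clusters 1, 2, 3, 5, 7 and 9, 49.5 CPM in cluster 4 and 25.5 CPM in cluster 8. Vim, the mesenchymal intermediate filament, had 3.39 CPM, against 1024 CPM in cluster 4.

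Without cluster 6, the differences by depth and mitochondrial share were much smaller. The cluster was picked by its leading gene, Zfpm2, itself among the long genes, and held 353 of the 397 cells of 10 to 20%. Smaller ratios were thus favoured by the choice and test nothing. In the remaining 14175 cells the long genes had 400.9 CPM at 1000 to under 1500 UMIs, and their ratio of shallow to deep cells was 1.02. Their ratio of cells of 10 to 20% to cells under 5% was 1.45, at 575.2 CPM (412.8 to 780.3, 41 UMIs in 44 cells) against 395.8 CPM. Malat1 had ratios of 1.17 and 1.37 in these cells. Within cluster 6 itself, the 73 cells under 5% mitochondrial UMIs had a median of 3550 UMIs, 32069 CPM of Malat1 and 1389 CPM of long genes. The 324 cells of 5 to under 10% had 85575 and 3696 CPM, and the 353 of at least 10%, out of 397 such cells in all, had 112295 and 3395 CPM.

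Outside cluster 6, single genes followed the clusters in different ways. Grip1 had 7.66 CPM (5.72 to 10.0) in mesenchymal-like cluster 4, against 56.4 to 133.3 CPM in the other clusters except cluster 6. How many other genes differed as much between these clusters was not counted. Apart from cluster 6, Zfpm2 was highest in clusters 1 and 9, at 53.5 and 45.0 CPM with overlapping intervals, and had 6.92 CPM in cluster 4 and 2.32 CPM (1 UMI) in simple epithelial-like cluster 8. Neat1 ran from 141.3 CPM in cycling-like cluster 3 to 348.6 CPM in cluster 1. Kcnq1ot1 lay within 30.1 CPM (cluster 5) and 55.7 CPM (cluster 8). As a gauge of free RNA, Vim was found in 90.5% of cells of cluster 4 and in 0.151% (cluster 5) to 4.50% (cluster 7) of cells in clusters 1, 2, 3, 5, 6, 7 and 9. No cell type known to lack Malat1 was available for the same check.

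**Figure D4:**
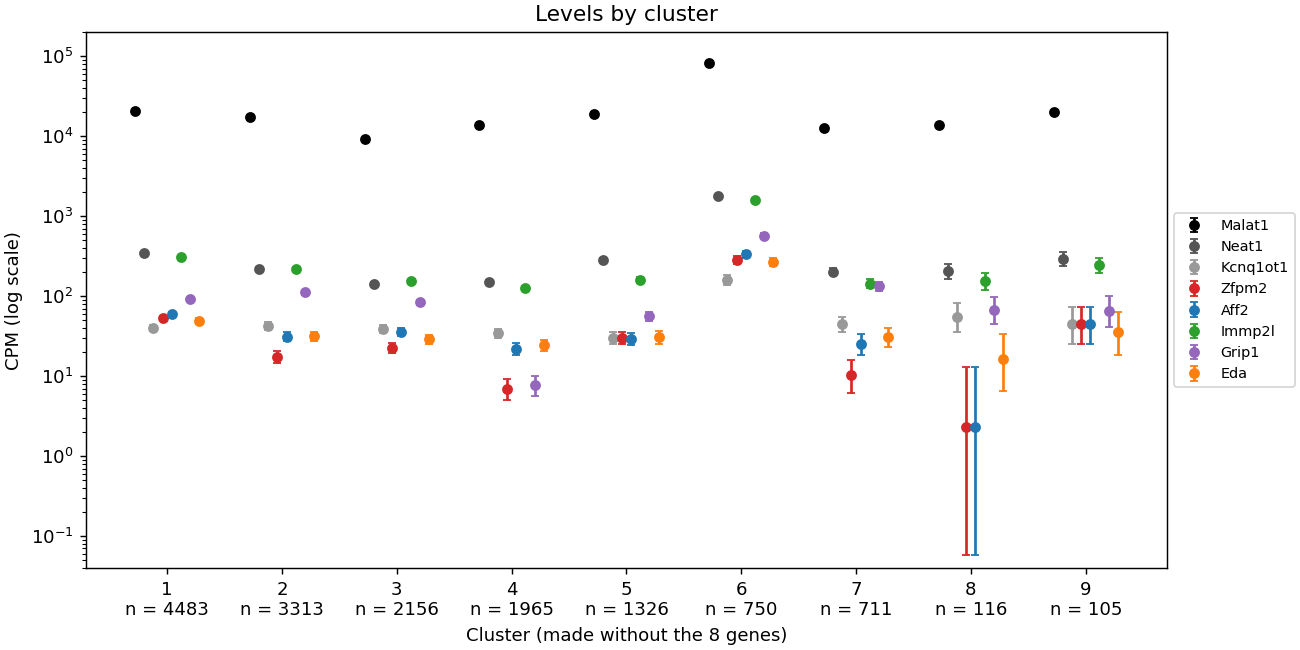
CPM of the 8 genes (log scale, with 95% Poisson intervals) in 9 clusters made without them, with the number of cells under each. Cluster 6 has the highest value of each of the 8 genes, 83449 CPM for Malat1 and 282.7 CPM for Zfpm2, and Grip1 is lowest in cluster 4 at 7.66 CPM.

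Gene span was not used to choose the genes, and the ratios of other genes differed by span class. Protein-coding genes under 10 kb, the 8 genes left out, had a median ratio of 0.384 between cells of 10 to 20% and cells under 5% mitochondrial UMIs. The median was 0.913 at 10 to 50 kb, 1.88 at 50 to 100 kb, 2.61 at 100 to 200 kb, 3.46 at 200 to 500 kb and 3.61 at 500 kb or more. Of the 125 other tested genes at least as long as Eda, the shortest of the 5, 79.2% were past 2-fold, with a median of 3.69. For shallow against deep cells under 5%, the medians ran only from 0.958 to 1.19 over the same span classes. Among the 5 long genes themselves the ratio did not follow span, with 7.17 for Immp2l, the longest, and 7.23 for Eda, the shortest. Malat1, a noncoding RNA of 7.0 kb, had 6.07, beside the median of 0.384 for protein-coding genes under 10 kb. The mitochondrial contrast was part of the choice of the genes, so nothing is read from their place above these medians.

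**Figure D5:**
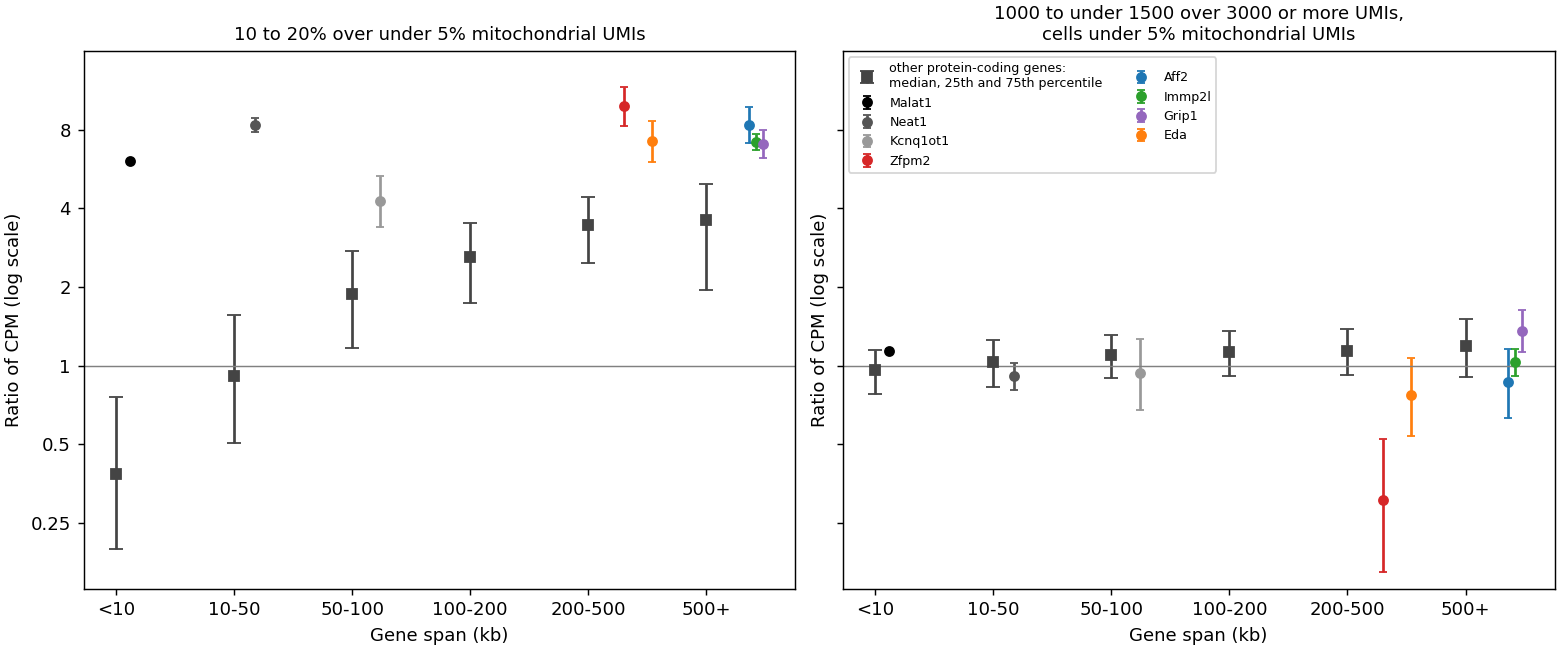
Ratio of CPM (log scale) by gene span, for 10 to 20% over under 5% mitochondrial UMIs (left) and for shallow over deep cells under 5% (right). Squares are medians of other protein-coding genes with the 25th to 75th percentile, and points are the 8 genes with 95% counting intervals. On the left the medians climb from 0.384 to 3.61. All 8 genes lie above the median of protein-coding genes of their span there, but this contrast was part of their choice. On the right the medians stay between 0.958 and 1.19.

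Not every long gene was high in these cells. Clstn2, at 588.8 kb, had a ratio of 0.44, Cpne4 of 0.55, Cacna1c of 0.57 and Camta1 of 0.80. Cpne4 and Cacna1c are leading genes of mesenchymal-like cluster 4. Thsd4 had a ratio of 8.92, Adgrl3 of 7.51, Psd3 of 7.49, Rims2 of 7.46 and Diaph2 of 7.38, within the range of the 5 long genes. These 9 were picked after their values were seen.

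By pattern over the 17 crossed bins of at least 50 cells, the genes most like Malat1 were Akap13 (Spearman 0.98), Zfand5 (0.98), mt-Atp8 (0.98), Tcf7l2 (0.98) and Fchsd2 (0.98). mt-Atp8 is itself counted in the mitochondrial share that defines the bins. The genes most like the summed long genes were Nfib (0.98), Phf20l1 (0.97), Fut9 (0.97), Ehmt1 (0.97) and Dennd1a (0.97). Over all tested genes the median correlation was 0.04 with Malat1 and 0.06 with the long genes. Among the 8, Immp2l (0.95) was closest to Malat1 and Zfpm2 (0.69) farthest.

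Other nuclear noncoding RNAs were mostly high in the same cells. Of 20 listed, 10 reached 5 CPM, and between 10 to 20% and under 5% mitochondrial UMIs 8 were past 2-fold higher and 0 lower, with a median ratio of 4.92. Over all tested genes 27.1% were higher and 25.3% lower, with a median of 1.01. Firre, a nuclear RNA that anchors chromosomal loci, had 6.05 (4.89 to 7.40), Ftx, from the X-inactivation centre, 7.55 (5.75 to 9.76), and Airn, the antisense RNA of the imprinted Igf2r locus, 4.21 (3.70 to 4.78). Tug1 had 1.81 (1.26 to 2.51) and Mir99ahg 1.62 (0.831 to 2.84). Their median for shallow against deep cells under 5% was 1.00.

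Messenger RNAs of paraspeckle and speckle proteins were called about as often as other genes. Of 10 paraspeckle proteins, 3 were past 2-fold higher and 2 lower, near the 27.1% and 25.3% of all tested genes, with a median of 1.70. Cpsf6, a subunit of a pre-mRNA cleavage factor, had 3.47 (2.81 to 4.25), while Hnrnpk had 0.334 (0.253 to 0.433) and Nudt21 0.258 (0.172 to 0.370). The core proteins Sfpq, at 1.40, and Nono, at 0.757, were past neither limit. Of 10 speckle proteins, 4 were higher and 1 lower, beside the same shares, with a median of 1.13. Srrm2, a structural protein of speckles, had 3.84 (3.53 to 4.17), and Ddx39b, an RNA helicase, 0.361 (0.248 to 0.508).

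The imprinted neighbours of Kcnq1ot1 were mostly past neither limit. Of 11 listed, 5 reached 5 CPM, of which 0 were past 2-fold higher and 2 lower, beside 27.1% and 25.3% of all tested genes, with a median of 0.54 in which Phlda2 is set to 3 UMIs. Cd81, a tetraspanin gene, stood at 120.4 against 678.4 CPM, a ratio of 0.177 (0.136 to 0.228), and Tssc4 had 0.462 (0.185 to 0.954). Phlda2, the imprinted growth regulator, had 2 UMIs in cells of 10 to 20%, a ratio of 0.360 (0.0435 to 1.31).

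Relatives and partners of the long genes were split. In the AFF family and elongation list, 8 of 11 were past 2-fold higher and 1 lower, beside 27.1% and 25.3% of all tested genes, with a median of 2.41. These lists were not matched for gene span. The share past 2-fold higher was 3.38% of protein-coding genes under 10 kb and 82.3% of those of 200 to 500 kb. Aff3, a paralog of Aff2, had 5.25 (3.66 to 7.32), Ell2 3.61 (2.96 to 4.36), and the kinase Cdk9 0.274 (0.118 to 0.541). Immp1l, the partner subunit of Immp2l, had 1.22 (0.916 to 1.58), and of their substrates Gpd2 had 2.12 (1.48 to 2.95), Cyc1 0.305 (0.174 to 0.496) and Diablo 0.347 (0.113 to 0.813). Of the GATA partners of Zfpm2, Gata6 had 2.39 (1.41 to 3.81) and Nr2f2 0.130 (0.0353 to 0.332). Of 4 tested partners of Grip1, 2 were higher and 1 lower, too few to set beside those shares, with Fras1, an extracellular matrix protein, at 2.95 (1.46 to 5.36) and Efnb1, an ephrin ligand, at 0.450 (0.266 to 0.712). Downstream of Eda, Traf6 had 2.40 (1.48 to 3.70) and Map3k7, which encodes the kinase TAK1, 3.03 (2.34 to 3.87), while the other 2 of the 4 tested, Tab2 and Ikbkg, were past neither limit.

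Markers of other cell types were few in cells of high mitochondrial share. Cells of 10 to 20% mitochondrial UMIs held 0 UMIs of the 5 immune markers, 2 UMIs of the 3 endothelial markers and 6 UMIs of the 5 neural markers. In this set of cells 3 UMIs make 5.83 CPM. The endothelial and neural sums were 3.88 and 11.7 CPM, against 1.20 and 8.93 CPM under 5%, where the immune sum was 1.06 CPM. Grip1 is best known from neurons. Basal markers summed to 1845 against 2941 CPM, with 1 of 7 tested past 2-fold higher, 2 lower and a median ratio of 0.962. Differentiated squamous markers summed to 122.3 against 653.5 CPM. Of 5 tested, 0 were past 2-fold higher and 2 lower, too few to set beside the shares of all tested genes, with a median of 0.555. Of 7 tested simple epithelial markers 7 were past 2-fold lower, where 25.3% of all tested genes were. Mesenchymal markers summed to 545.7 against 1301 CPM, and at a matched depth of 1000 to under 2000 UMIs to 560.9 against 671.2 CPM. Cycling markers summed to 310.7 against 629.0 CPM, and at matched depth the other way, to 316.8 against 228.8 CPM.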

How the data were processed

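The deposited matrix holds UMI counts per gene and barcode, not normalized, written by Cell Ranger 8.0.1 per the file headers. The submitters' processing notes name mm10 and Scanpy 1.8.2. The lowest barcode total was 500. Which annotation was used, and whether introns were counted, is not given in the sources used here. For positions, gene IDs were matched to GENCODE M21 on GRCm38 (32235 of 32287 found).

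Counts were summed over cells and scaled to CPM, with exact 95% Poisson intervals; ratios have exact conditional binomial intervals and shares Clopper-Pearson ones, which cover counting error only. A gene was tested at 5 CPM or more, which all 8 passed, and called at a ratio of at least 2, with the lower side raised to 3 UMIs where it had fewer. In simulated counts of 10139 genes, 100 of 100 genes raised 4-fold were called in the depth and in the mitochondrial comparison, 98 and 72 of 100 genes lowered to 0.25, and 50 and 282 of 9939 unchanged genes. The simulated counts held counting error only, around the pooled profile of the kept cells, and no differences between cells. They thus give no rate of false calls in the data. Clusters came from Leiden clustering (igraph 0.11.9, scanpy 1.11.5) with 30 components, 15 neighbours and resolution 0.6. No doublet caller was run.

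Genes named are the 8, the 5 most like Malat1 and the 5 most like the summed long genes, the partner lists, and those said to be picked afterwards. Genes and lists were chosen with earlier results of these data known. Alternatives changed the filters, the total, the thinning, the clustering and the gene minimum.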

Additional observations from a re-analysis of the deposited data

How the results depend on the processing

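With 1 culture there is no replicate, so no replicate was left out. No paired analysis was possible because there is 1 matrix of 1 culture and no test was made. Of the alternatives, 22 CPM values of single genes moved by less than their counting interval and 34 by more, and all 8 thinned shares were higher at 1500 UMIs. Leaving out cluster 6 was added after the data were seen, and the cluster was picked by its leading gene, Zfpm2.

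The ratio of the long genes between shallow and deep cells was 0.987 (0.901 to 1.08) with at most 5% mitochondrial UMIs, an interval that holds 1. It was 2.64 at a maximum of 10% and 1.02 without cluster 6. Their mitochondrial ratio was 8.35 with mitochondrial UMIs out of the total, 4.42 in cells of at least 2000 UMIs and 1.45 without cluster 6. The depth ratio of Malat1 was 2.87 with mitochondrial UMIs out of the total, 2.63 without the 5% of cells with most UMIs, 1.95 and 1.14 at a maximum of 10% and 5%, and 1.17 without cluster 6. Its mitochondrial ratio was 6.78, 5.83, 5.85 (1000 to under 2000 UMIs), 3.78 (at least 2000 UMIs) and 1.37. The share of the 8 genes was 1.96% without mitochondrial UMIs and 1.96% without GFP and Scar, 1.99% without the deepest cells, 1.81% at a maximum of 10%, 1.73% at a minimum of 2000 UMIs and 1000 genes, and 1.72% without cluster 6.

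Genes past 2-fold higher in shallow cells numbered 1188, and 565 and 153 at a maximum of 10% and 5%, 755 at a minimum of 20 CPM, 2118 at a minimum of 20 UMIs and 157 without cluster 6. Genes lower there went from 535 to 240 at 20 CPM. Genes higher in cells of high mitochondrial share went from 2750 to 1648 at 20 CPM, 4231 at 20 UMIs and 1578 without cluster 6. Genes lower there went from 2567 to 551 in cells of at least 2000 UMIs and 261 without cluster 6. The minimum of 20 CPM left 6299 tested genes and that of 20 UMIs 14224, in place of 10139, so the counts there also follow the number tested. How far the number of cells accounts for the counts, and the cause at the remaining settings, was not tested.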
